A study of Mus musculus with 17 samples.

Results

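Serpins of clade A are secreted proteins, made for the most part by hepatocytes, and RNA of 10 of them was followed across mouse livers and isolated hepatocytes with losses in the sphingomyelin synthase family. The members were taken by gene symbol from the deposited files, and all 10 were found, among 49315 genes in the liver files and 15632 genes listed in at least 1 hepatocyte file. They are 5 Serpina1 genes (Serpina1a to Serpina1e), 3 Serpina3 genes (Serpina3k, Serpina3m and Serpina3n), Serpina6 and Serpina12. All 10 lie on chromosome 12 of GRCm38, in the stretch chr12:103646630-104414329. They were chosen with their hepatocyte values known, so those values, and the calls that a test over all genes gave them, are a description and support nothing.

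There were 4 SMSrKO and 4 wild-type (WT) liver libraries, from mice on a high-fat diet with fructose in the water for 16 weeks. Hepatocytes, freed from liver with collagenase, gave 3 Sms1/Sms2/Smsr-tKO (tKO), 3 Sms1/Sms2-dKO (dKO) and 3 WT libraries, from mice of 2 months for which the labels give an n of 3 a group and no diet. Smsr (Samd8) encodes SMSr, and Sms1 and Sms2 (Sgms1 and Sgms2) encode the sphingomyelin synthases. The labels give neither strain nor sex, nor the tissues in which the genes were deleted. They also do not tie each replicate to its own animal, so the spread behind every p-value may in part be technical.

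A serpin inhibits a protease by offering it an exposed reactive centre loop as bait. The protease cuts the loop after 1 residue, the P1 residue, and is then trapped by the serpin's change of shape. The letters around the P1 residue largely set which protease is caught. Serpina1 encodes alpha-1-antitrypsin, an inhibitor of neutrophil elastase that people have as a single functional gene and mice as several copies. Serpina3 genes are the mouse relatives of human alpha-1-antichymotrypsin, an inhibitor that rises in inflammation. Serpina6 and Serpina12 share the fold but have other roles: Serpina6 is corticosteroid-binding globulin, the blood carrier of glucocorticoids, and Serpina12 is vaspin, a protein also secreted by fat.

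The 60 coding bases around the reactive centre are shown because they are where near-identical copies part. Each window starts at the conserved hinge of the loop and ends 5 codons past the P1 codon, which stands in capitals. The windows lie in the last exon of each transcript, on the minus strand of GRCm38 for Serpina1a (chr12:103853771-103853830), Serpina1b (chr12:103728338-103728397), Serpina1c (chr12:103895108-103895167), Serpina1d (chr12:103763776-103763835) and Serpina1e (chr12:103947114-103947173).
Serpina1a: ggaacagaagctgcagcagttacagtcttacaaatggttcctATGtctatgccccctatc
Serpina1b: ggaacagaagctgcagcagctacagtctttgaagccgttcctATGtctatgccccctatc
Serpina1c: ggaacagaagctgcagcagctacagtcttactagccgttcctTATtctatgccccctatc
Serpina1d: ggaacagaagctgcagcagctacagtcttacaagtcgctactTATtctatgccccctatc
Serpina1e: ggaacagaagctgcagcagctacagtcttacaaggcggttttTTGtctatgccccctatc
Serpina1a and Serpina1b have ATG (methionine) as the P1 codon, Serpina1c and Serpina1d have TAT (tyrosine), and Serpina1e has TTG (leucine). Between pairs of these 5 windows, 4 to 8 of the 60 bases differ. The Serpina3 windows lie on the plus strand, at chr12:104345269-104345328 for Serpina3k, chr12:104393769-104393828 for Serpina3m and chr12:104413448-104413507 for Serpina3n.
Serpina3k: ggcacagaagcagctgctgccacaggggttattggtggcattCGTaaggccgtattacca
Serpina3m: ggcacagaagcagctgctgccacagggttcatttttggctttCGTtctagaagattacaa
Serpina3n: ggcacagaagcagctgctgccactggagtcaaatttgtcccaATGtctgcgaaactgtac
Serpina3k and Serpina3m have CGT (arginine) and Serpina3n has ATG (methionine). Serpina6 and Serpina12 do not hold the hinge letters searched for.

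Outside the loop the Serpina1 copies are more alike. Their coding sequences are 96.3% to 98.5% identical, with Serpina1a and Serpina1c the most alike. Serpina3k is 91.8% identical to Serpina3m and 83.4% to Serpina3n. Of all stretches of 100 bases in a transcript, the share found in no other member is 41.5% for Serpina1c, 52.6% for Serpina1a, 73.7% for Serpina1d, 75.4% for Serpina1b and 81.8% for Serpina1e. It is 93.9% for Serpina3m, 95.1% for Serpina3k and 100% for Serpina3n, Serpina6 and Serpina12. How reads that fit several copies were counted is not given in the sources used here. Values of single Serpina1 copies are therefore uncertain, most of all for Serpina1a and Serpina1c, and the sum over the copies is given beside them. The annotated span of Serpina1b also covers Serpina1d, and that of Serpina3m covers Serpina3k.

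RefSeq promoter windows (GRCm38.p6, 250 bases before to 50 after the start) were at hand for 7 members. Those of Serpina1b and Serpina1e are shown because they had the smallest and the largest difference of the 5 copies between dKO and WT hepatocytes, while their aligned promoter bases were 98.4% identical. They lie on the minus strand at chr12:103738140-103738439 for Serpina1b and chr12:103956848-103957147 for Serpina1e. Capitals mark TTGCNNAA, a form of the motif of C/EBP, a family of hepatocyte and inflammation-linked transcription factors.
Serpina1b: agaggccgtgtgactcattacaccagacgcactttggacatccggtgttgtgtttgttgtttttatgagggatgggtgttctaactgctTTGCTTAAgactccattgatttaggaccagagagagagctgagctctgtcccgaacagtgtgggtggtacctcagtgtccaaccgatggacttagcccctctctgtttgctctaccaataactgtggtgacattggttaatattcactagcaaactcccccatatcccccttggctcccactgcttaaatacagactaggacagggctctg
Serpina1e: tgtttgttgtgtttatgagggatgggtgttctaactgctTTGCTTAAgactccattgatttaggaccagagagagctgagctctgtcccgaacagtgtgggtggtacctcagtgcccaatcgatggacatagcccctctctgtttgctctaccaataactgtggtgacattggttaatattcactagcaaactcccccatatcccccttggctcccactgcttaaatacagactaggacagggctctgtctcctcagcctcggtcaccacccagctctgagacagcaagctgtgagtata
TTGCNNAA was in 5 of 7 member promoters (Serpina1a, Serpina1b, Serpina1d, Serpina1e and Serpina12) and in neither Serpina1c nor Serpina3n, against 10.8% of 32851 promoters. The aligned Serpina1 promoters are 91.7% to 98.4% identical, and the matches of Serpina1b, Serpina1d and Serpina1e lie in the same stretch of letters. These matches are therefore not separate observations, and nothing is read from the count. TTGCNNAA begins at −161 from the annotated start of Serpina1b and at −211 from that of Serpina1e. In Serpina1a it is another stretch, at position 25 past the start. TTCNNNGAA, a STAT motif, was in 0 of 7 member promoters and 8.3% of all, and TATAAA in 0 of 7 and 13.6% of all. The whole palindrome of the glucocorticoid receptor was in 0 of 7 and in 0.00913% of all promoters. All searches covered both strands. Matches of letters are a description, not sites shown to be used.

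Depth ran from 24391627 to 47351126 counts per liver library and from 9221488 to 9665309 expected counts per hepatocyte library. Replicates varied far more in liver, where edgeR's common coefficient of variation was 20.3%, than in hepatocytes, where it was 3.52%. Between replicates of a group, chi-square per degree of freedom was 21.5 to 165 in liver and 1.54 to 2.67 in hepatocytes, where 1 is counting noise alone. Samd8, Sgms1 and Sgms2 RNA did not stand lower in their knockouts, apart from Sgms2 in hepatocytes, so these levels did not check the labels. The labels' extract protocol names a fat depot for the SMSrKO experiment. In its libraries 10 adipocyte markers, of which only Lep was at 0, summed to 58.4 to 161.6 CPM. The 10 hepatocyte markers summed to 65566 to 103989 CPM. WT 1 of the liver stood apart from the other libraries, and liver values that rest on it are given with and without it.

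In hepatocytes the Serpina1 genes were among the most abundant RNAs. FPKM, a level scaled for transcript length and library depth, is given as deposited and rounded. In WT hepatocytes Serpina1c ranked 15th, Serpina1b 18th, Serpina1d 28th and Serpina1a 29th by mean FPKM among 14256 genes above 0. Serpina1e, the smallest of the copies in RNA, ranked 665 in tKO, 2757 in dKO and 155 in WT. Ranks of all 5 copies were further down the order in both knockouts than in WT.

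Serpina1e, the copy with leucine at P1 and known for higher levels in male than in female mouse liver, differed most. It stood at 112, 113 and 109 FPKM in tKO, at 28.8, 27.4 and 25.1 FPKM in dKO and at 437, 473 and 456 FPKM in WT. The 3 groups did not overlap, and dKO, not tKO, was the lowest. The log2 fold change was −2.06 ± 0.0431 (SE) for tKO against WT (4.17-fold lower), −4.08 ± 0.0524 for dKO against WT (16.9-fold lower) and 2.01 ± 0.0575 for tKO against dKO (4.04-fold higher).

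Serpina1c, the copy with most RNA in WT, came next among the copies in both comparisons with WT. Its FPKM values were 2050, 1945 and 1866 in tKO, 2256, 2221 and 2207 in dKO and 3735, 3901 and 3880 in WT. Both knockouts lay far below WT and close to each other, with log2 fold changes of −1.004 ± 0.0341 for tKO against WT, −0.79 ± 0.034 for dKO against WT and −0.21 for tKO against dKO. Serpina1d, the other copy with tyrosine at P1, stood at 1310, 1259 and 1260 FPKM in tKO, 1497, 1498 and 1469 in dKO and 1937, 1986 and 1937 in WT. Its log2 fold change was −0.64 ± 0.0336 for tKO against WT and −0.40 ± 0.0334 for dKO against WT, and −0.25 ± 0.0336 for tKO against dKO.

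The copies with methionine at P1 differed least from WT in each knockout. Serpina1a stood at 1543, 1494 and 1434 FPKM in tKO, 1619, 1621 and 1610.4 in dKO and 1878, 1951 and 1918 in WT. Serpina1b stood at 2436, 2377 and 2340 FPKM in tKO, 2982, 3052 and 2965 in dKO and 3392, 3564 and 3508 in WT. Both genes kept the order tKO, dKO, WT from low to high with no overlap. For Serpina1a the log2 fold change was −0.39 ± 0.0336 in tKO and −0.25 ± 0.0336 in dKO against WT. For Serpina1b it was −0.58 ± 0.0328 in tKO and −0.22 ± 0.0327 in dKO against WT. Between tKO and dKO it was −0.14 ± 0.0336 for Serpina1a and −0.36 ± 0.0328 for Serpina1b, which there had a larger difference than those of Serpina1c and Serpina1d.

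**Figure D1:**
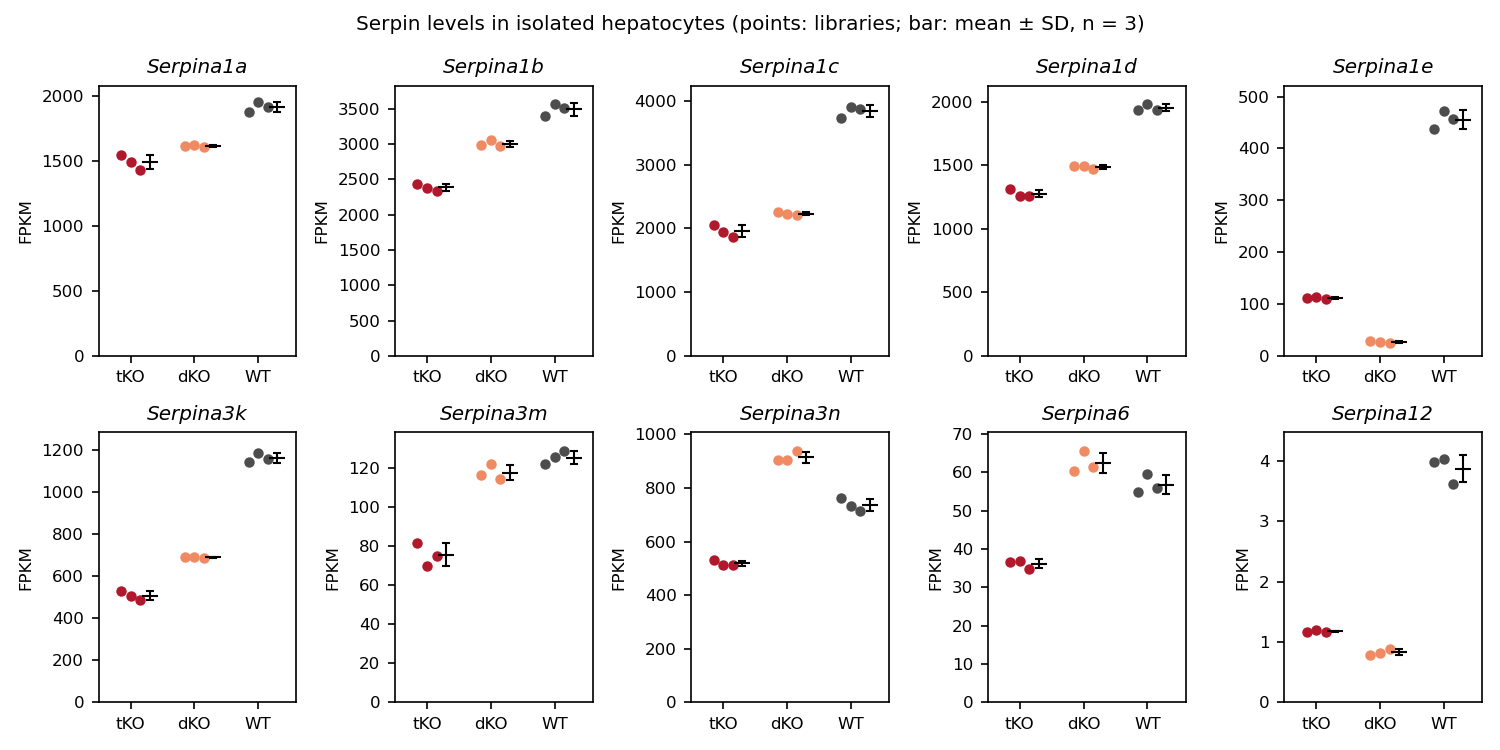
FPKM of the 10 serpins in isolated hepatocytes, 1 panel a gene, with tKO, dKO and WT from left to right. Points are libraries and bars the mean ± SD (n = 3). Every panel has its own vertical axis from 0. Serpina1e and Serpina12 are lowest in dKO, Serpina3n and Serpina6 are highest in dKO, and the means of the other 6 genes run in the order tKO, dKO, WT from low to high.

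Among the Serpina3 genes the 3 members took different paths in dKO. Serpina3k, an inhibitor that binds tissue kallikrein in rodents, stood at 529.7, 508 and 487 FPKM in tKO, 689, 693 and 687 in dKO and 1141, 1187 and 1155 in WT. It lay below WT in both knockouts, by −1.22 ± 0.0359 log2 in tKO and −0.76 ± 0.0354 in dKO, with tKO the lower. Serpina3m stood at 81.9, 70.2 and 75.0 FPKM in tKO, 116.8, 122.2 and 114.5 in dKO and 122.1, 125.8 and 128.8 in WT. The tKO libraries lay apart from the rest, at −0.76 ± 0.0485 log2 against WT, while dKO just overlapped WT, at −0.10 ± 0.0465.

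Serpina3n, an inhibitor of granzyme B in mice and an acute phase gene, was the member with its highest level in dKO among the abundant ones. It stood at 531, 513.5 and 511 FPKM in tKO, at 903.1, 903.2 and 937.5 in dKO and at 761.8, 734 and 716 in WT. The groups did not overlap. The log2 fold change was −0.54 ± 0.0351 for tKO against WT, 0.31 ± 0.0347 for dKO against WT and −0.84 ± 0.0351 for tKO against dKO.

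Serpina6, corticosteroid-binding globulin, had the same shape at a lower level. It stood at 36.6, 37.0 and 34.9 FPKM in tKO, at 60.4, 65.5 and 61.3 in dKO and at 55.0, 59.5 and 55.8 in WT. The tKO libraries lay well below the others, at −0.68 ± 0.0593 log2 against WT and −0.81 ± 0.0586 against dKO, while dKO was 0.13 ± 0.0553 above WT. The call of Serpina6 for dKO against WT was lost in DESeq2, without the filter on low counts, with the liver dispersion and on leaving out WT 1, WT 3, dKO 5, dKO 6 or tKO 9 in turn, at 0.09 to 0.14 log2.

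Serpina12, vaspin, was the member with the least RNA in hepatocytes. By mean FPKM it ranked 10082 of 14730 genes above 0 in tKO, 10589 of 14859 in dKO and 8220 of 14256 in WT. It stood at 1.17, 1.19 and 1.17 FPKM in tKO, 0.79, 0.82 and 0.89 in dKO and 3.97, 4.02 and 3.62 in WT. These values rest on 41 counts in each tKO library, 27, 28 and 30 in dKO and 133, 136 and 122 in WT. Both knockouts lay below WT, by −1.74 ± 0.156 log2 in tKO (3.35-fold) and −2.21 ± 0.168 in dKO (4.64-fold), and the difference between tKO and dKO, 0.47 ± 0.207, did not pass the threshold.

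In all, edgeR's quasi-likelihood test called 10 of 10 members lower in tKO than in WT, where 47.4% of 11471 genes were called, 25.6% higher and 21.8% lower. For dKO against WT it called 9 of 10 members, 2 higher (Serpina3n and Serpina6) and 7 lower, against 44.0% of all genes, 24.0% higher and 20.0% lower. For tKO against dKO it called 9 of 10, 1 higher (Serpina1e) and 8 lower, against 29.5% of all genes, 14.3% higher and 15.2% lower. The first 2 comparisons share the WT libraries. As the members were chosen on these contrasts, nothing is read from the counts. The median log2 fold change over the members was −0.72 for tKO against WT, −0.32 for dKO against WT and −0.30 for tKO against dKO, beside −0.0035, −0.0096 and 0.0008 over all genes tested in the same comparisons.

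The spread between hepatocyte libraries was small, and calls depended on the dispersion and test used. The larger common dispersion of the liver libraries was tried with a likelihood ratio test. There, 5 members were called for tKO against WT (Serpina1c, Serpina1e, Serpina3k, Serpina3m and Serpina12), where 10.6% of genes were. For dKO against WT 4 were called (Serpina1c, Serpina1e, Serpina3k and Serpina12), where 9.20% were. For tKO against dKO 3 were called (Serpina1e, Serpina3n and Serpina6), where 2.84% were.

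**Figure D2:**
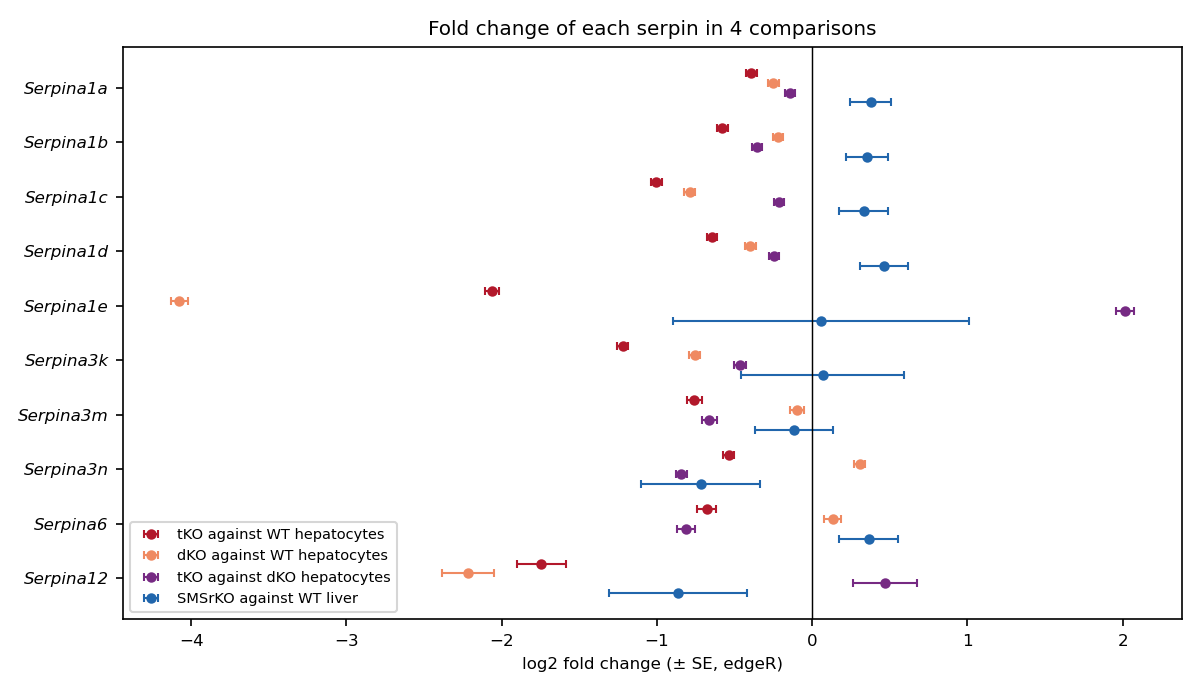
Log2 fold change (horizontal axis) of each serpin in the 3 hepatocyte comparisons and in liver, as edgeR estimates with bars of ± 1 SE; values right of 0 are higher in the group named first. Serpina1e reaches −4.08 for dKO against WT and 2.01 for tKO against dKO, and liver bars are wider than hepatocyte bars.

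Summed over the 5 copies, Serpina1 RNA was lower in both knockouts. A sum of counts does not depend on how reads were split among the copies, while a sum of FPKM does, since the copies differ in length, and neither holds reads that were left out. The sum was 7216 ± 222 FPKM in tKO, 8359 ± 74.1 in dKO and 11651 ± 251 in WT (SD, n = 3 each). As a share of all counts in a library it was 1.03% in tKO, 1.19% in dKO and 1.64% in WT. With the 5 copies entered as 1 gene, a fit added after the data were seen, the log2 fold change was −0.71 ± 0.0317 for tKO against WT, −0.47 ± 0.0316 for dKO against WT and −0.23 ± 0.0316 for tKO against dKO.

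The makeup of that sum also differed between groups. Serpina1c was 27.1% of the summed FPKM in tKO, 26.7% in dKO and 33.0% in WT. Serpina1e was 1.54% in tKO, 0.324% in dKO and 3.91% in WT. Serpina1c was the largest copy in WT, while Serpina1b was the largest in tKO, at 33.1%, and in dKO, at 35.9%.

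The Serpina3 sum stood at 1102 ± 36.0 FPKM in tKO, 1722 ± 15.2 in dKO and 2024 ± 23.3 in WT. Entered as 1 gene, it differed by −0.87 ± 0.0335 log2 for tKO against WT, −0.18 ± 0.0332 for dKO against WT and −0.69 ± 0.0335 for tKO against dKO. Serpina3n made up 47.0% of the sum in tKO, 53.1% in dKO and 36.4% in WT. In both knockouts it was thus a larger part of the sum than in WT, although its own level was lower in tKO.

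**Figure D3:**
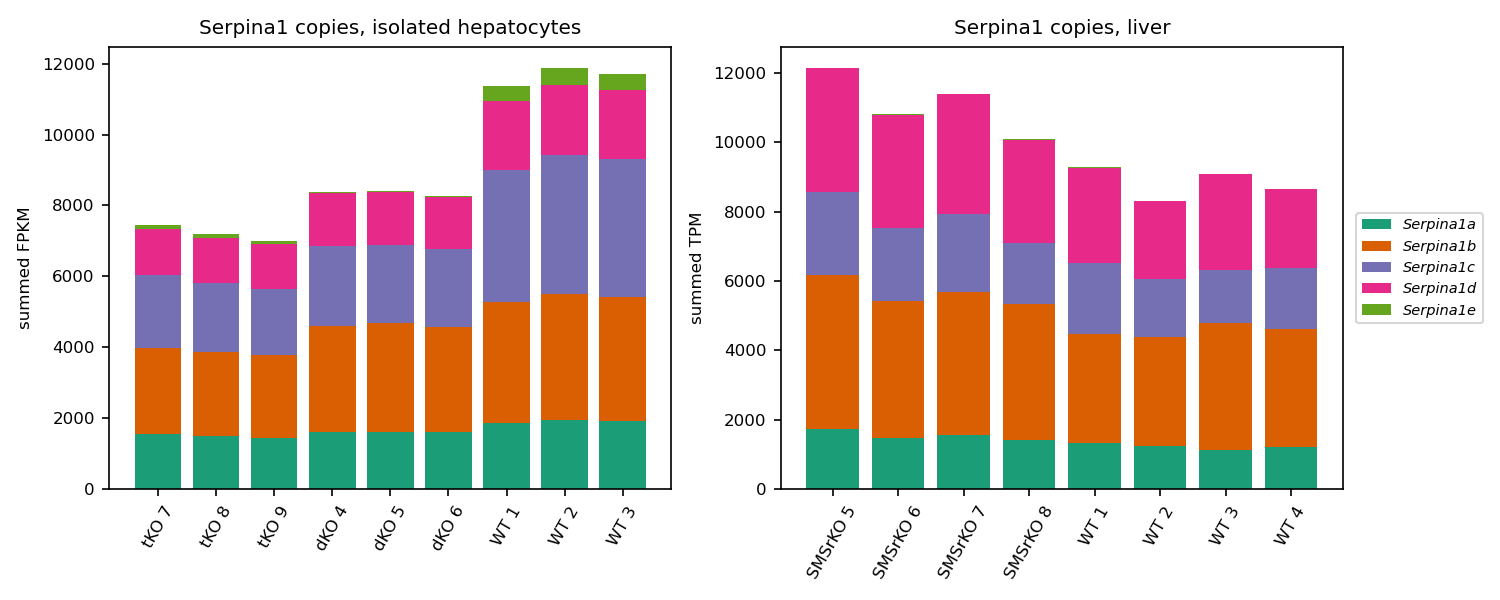
RNA of the 5 Serpina1 copies stacked per library, as FPKM in hepatocytes (left) and TPM in liver (right), knockouts left of WT. The hepatocyte sums are lower in tKO and dKO than in WT, the Serpina1e band is thin in dKO, and the liver sums of all 4 SMSrKO libraries lie above those of the 4 WT libraries.

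Summed markers of cell types also differed between the hepatocyte groups, in several orders, and their part in the results was not tested. The 10 hepatocyte markers summed to 55278 to 57495 CPM in tKO, 62226 to 63470 in dKO and 73143 to 74469 in WT, the same order as the Serpina1 sum. The 10 endothelial markers summed to 93.7 to 98.2 CPM in tKO, 160.2 to 179.4 in dKO and 25.8 to 27.3 in WT, with none at 0 in any group. The 10 macrophage markers summed to 363.1 to 382.8 CPM in tKO, 324.3 to 341.3 in dKO and 122.0 to 137.2 in WT, with Vsig4 at 0 in WT. The 10 stellate cell markers summed to 32.4 to 37.1 CPM in tKO, 53.6 to 58.6 in dKO and 15.9 to 20.1 in WT, with Lrat and Colec11 at 0 in WT. The 10 cholangiocyte markers summed to 258.5 to 271.4 CPM in tKO, 389.5 to 408.3 in dKO and 267.1 to 276.8 in WT. Tff2 was at 0 in every group, Krt7 at 0 in tKO and Cftr at 0 in dKO and WT. Only 4 of these 10 were tested, and for dKO against WT 1 was called higher and 1 lower (44.0% of all genes called). The 10 adipocyte markers summed to 49.1 to 53.5 CPM in tKO, 59.4 to 63.5 in dKO and 45.5 to 51.1 in WT, with Adipoq, Lep, Retn and Cfd at 0 in every group. The endothelial, stellate cell, cholangiocyte and adipocyte sums were all highest in dKO, as Serpina3n and Serpina6 were. The 10 neutrophil markers summed to at most 3.42 CPM in any library, with S100a8 and Mpo at 0 in every group. In bulk RNA, fewer cells of a type and less RNA per cell cannot be told apart.

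Acute phase genes, to which Serpina3n belongs by its regulation, did not all move as it did. Of 14 such genes apart from the members, 8 were called higher and 6 lower in tKO than in WT (47.4% of all genes called). For dKO against WT it was 10 and 4 (44.0%). This list and those below were written with earlier results of these data known, so nothing is read from their counts. Between tKO and dKO, all 14 were called lower in tKO, as Serpina3n was (29.5% of all genes called). Genes named from these lists are among those with the smallest p, so their values are a description too. The hormone of iron balance Hamp was lower in tKO than in dKO by −1.02 ± 0.042 log2 and serum amyloid Saa2 by −0.75 ± 0.0366. The fibrinogen chains Fga and Fgg stood at −0.88 ± 0.0328 and −0.90 ± 0.0338 log2 in tKO against WT. These named genes do not stand for the list in the comparisons with WT, where more genes were called higher than lower. Its median log2 fold change was 0.31 for tKO against WT and 0.62 for dKO against WT.

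Receptors and signalling genes upstream of acute phase serpins were tested too. Of 10, 6 were called higher and 2 lower in tKO than in WT (47.4% of all genes called). For dKO against WT it was 9 and 0 (44.0%), and for tKO against dKO 0 and 5 (29.5%). Il1r1, the interleukin 1 receptor, stood at −1.05 ± 0.0531 log2 in tKO against dKO, and Osmr, the oncostatin M receptor, at −0.61 ± 0.0623.

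Of 18 transcription regulators tested, 5 were called higher and 6 lower in tKO than in WT (47.4% of all genes called). For dKO against WT it was 6 and 9 (44.0%), and for tKO against dKO 4 and 7 (29.5%). Cebpd, an inflammation-induced C/EBP factor, was 0.50 ± 0.0625 log2 higher in tKO than in WT and 1.502 ± 0.0578 higher in dKO than in WT. Hnf4a, a factor of hepatocyte identity, was 0.50 ± 0.0477 log2 higher in tKO than in dKO. Ghr, the growth hormone receptor, stood at −0.45 ± 0.0525 log2 in tKO against WT.

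Genes that fold, carry and clear alpha-1-antitrypsin in the secretory pathway were tested as well. Of 20, 4 were called higher and 5 lower in tKO than in WT (47.4% of all genes called). For dKO against WT it was 1 and 13 (44.0%), and for tKO against dKO 12 and 1 (29.5%). The folding enzyme Pdia4 stood at 505 CPM in tKO, 252 in dKO and 438 in WT, and was 1.001 ± 0.0394 log2 higher in tKO than in dKO. Lman1, a cargo receptor that carries alpha-1-antitrypsin out of the endoplasmic reticulum, stood at 129.7 CPM in tKO, 111.2 in dKO and 156.2 in WT.

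Around Serpina6, 9 genes of steroid handling were measured. Of them 3 were called higher and 3 lower in tKO than in WT (47.4% of all genes called). For dKO against WT it was 1 and 4 (44.0%), and for tKO against dKO 3 and 3 (29.5%). Hsd11b1, which turns inactive glucocorticoid into active, stood at 119.0 CPM in tKO, 223.6 in dKO and 258.4 in WT, −1.12 ± 0.046 log2 in tKO against WT. Of 10 proteases that clade A serpins inhibit, 5 were called higher and 4 lower in tKO against WT. For dKO against WT it was 4 and 3, and for tKO against dKO 2 and 3, beside the same shares of all genes.

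Other serpins gave mixed pictures. Of 7 other clade A serpins tested, 2 were called higher and 4 lower in tKO than in WT (47.4% of all genes called). For dKO against WT it was 3 and 4 (44.0%), and for tKO against dKO 2 and 4 (29.5%). Serpina7, the thyroxine carrier, had 261 ± 19.3 FPKM in tKO, 556 ± 29.8 in dKO and 411 ± 18.1 in WT. Its order, dKO highest and tKO lowest, was that of Serpina3n and Serpina6. Of 12 serpins of other clades, 5 were called higher and 3 lower in tKO than in WT. For dKO against WT it was 6 and 2, and for tKO against dKO 3 and 2, beside the same shares of all genes. Serpinf2, alpha-2-antiplasmin, had 174.8 ± 5.29 FPKM in tKO, 194.6 ± 3.26 in dKO and 259 ± 3.75 in WT. Serpina7 and Serpinf2 do not stand for their lists, as both lists held genes called higher in both knockouts than in WT. For tKO and dKO against WT, the median log2 fold change was −0.46 and −0.21 over the clade A list. Over the list of other clades it was 0.04 and 0.20.

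Genes whose levels across the 9 hepatocyte libraries were most like those of 4 members were looked for among 9293 genes, by the root mean square difference of centred log2 CPM. For Serpina12 the nearest was Mup3, a major urinary protein gene, at 0.0722, followed by Mup19 at 0.177 and Mup21 at 0.201. For Serpina1e the nearest lay farther off, with Mup7 at 0.605, Mup11 at 0.725 and the transporter Slco1a1 at 0.899. For Serpina3n they were Bsg at 0.0711, Enpp2 at 0.0787 and Tsc22d1 at 0.0848, and for Serpina6 Efna1 at 0.0646, Bsg at 0.0758 and Higd1a at 0.0788. Many Mup genes are near-identical copies. How alike the named ones are was not tested, so their single values may be uncertain.

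In liver the question was whether loss of SMSr alone moved these genes in mice on the diet, and 0 of 10 members passed the test. At an unadjusted p under 0.05 there were 3 members, Serpina1a, Serpina1b and Serpina1d, all higher in SMSrKO, where 13.1% of all genes passed that cut and 5.97% did so with the higher level in SMSrKO. DESeq2 also called 0 members. Over all genes edgeR called 37 of 15820, or 0.234%, with 0.120% higher and 0.114% lower. The median log2 fold change of the members was 0.20, beside −0.01 over all genes, and 7 of 10 lay above 0.

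The 4 abundant Serpina1 copies stood higher in SMSrKO livers without passing the threshold. Serpina1b had 4446, 3960.0, 4115 and 3931.5 TPM (a level scaled for length and depth) in SMSrKO and 3154, 3156, 3667 and 3386 TPM in WT. Serpina1d had 3576, 3269, 3480.1 and 2979 TPM in SMSrKO and 2745, 2234, 2757 and 2264 TPM in WT. For both genes every SMSrKO library lay above every WT library. The share of all genes that separate in this way was not counted, and the copies may share reads. Nothing is therefore read from such separation, here or for Serpina1a and the sum of copies. The log2 fold change was 0.35 ± 0.135 for Serpina1b (adjusted p = 0.304) and 0.46 ± 0.155 for Serpina1d (adjusted p = 0.258).

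Serpina1a had 1727, 1463, 1561 and 1406 TPM in SMSrKO and 1334, 1245, 1119.9 and 1219.7 TPM in WT. Its groups did not overlap in TPM but did in CPM, at 0.38 ± 0.132 log2 (adjusted p = 0.264). Serpina1c had 2384, 2113, 2246 and 1747 TPM in SMSrKO and 2032, 1664, 1534 and 1778 TPM in WT, which overlapped, at 0.33 ± 0.16 (adjusted p = 0.408). The sum over the copies was 11115 ± 871 TPM in SMSrKO and 8835 ± 445 TPM in WT (SD, n = 4 each), ranging from 10097 to 12145 in SMSrKO and from 8304 to 9302 in WT. As 1 gene it differed by 0.38 ± 0.145 log2. Hepatocyte markers summed to 91693 to 103989 CPM in SMSrKO and 65566 to 82034 CPM in WT, and their part in this was not tested.

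Serpina1e was a minor RNA in these livers, at 0.126% of the Serpina1 sum in SMSrKO and 0.137% in WT. It had 11.1, 4.20, 5.29 and 33.0 TPM in SMSrKO and 36.0, 4.62, 3.01 and 6.29 TPM in WT. In each group 1 library stood far above the rest, and the groups overlapped, at 0.06 ± 0.951 log2 (adjusted p = 0.985). Without WT 1 the value was 1.60. Chosen after their values were seen, the X-inactivation RNA Xist had 12394 to 29817 counts in liver libraries and the Y-linked Ddx3y 0 to 6. In the hepatocyte files Xist was not listed and Ddx3y had 0 to 1 counts.

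**Figure D4:**
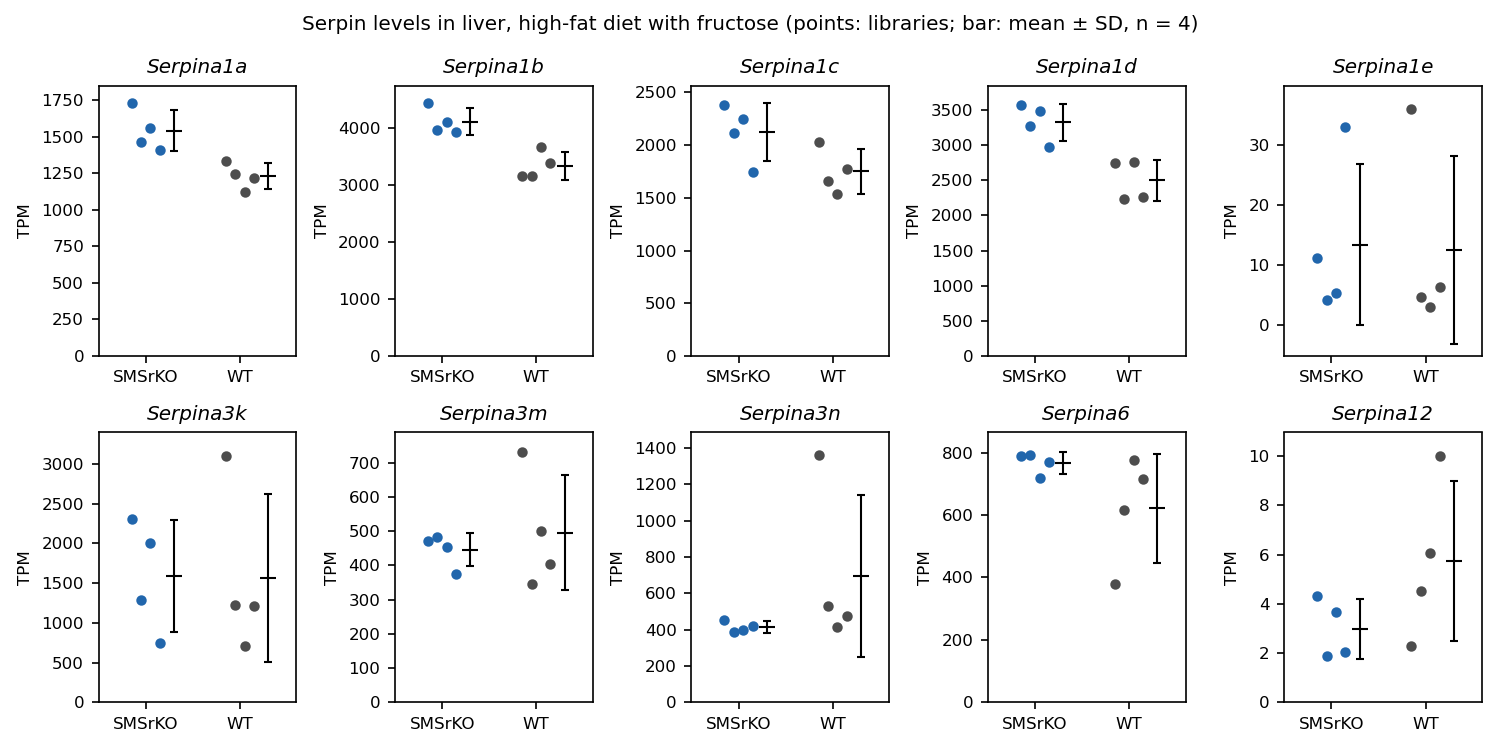
TPM of the 10 serpins in liver, 1 panel a gene, SMSrKO left of WT. Points are libraries and bars the mean ± SD (n = 4), and each vertical axis is its own. Serpina1a, Serpina1b and Serpina1d do not overlap between the groups in TPM, which was not counted over all genes. WT 1 is the highest WT point for Serpina1a, Serpina1c, Serpina1e, Serpina3k, Serpina3m and Serpina3n.

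The Serpina3 genes in liver turned on 1 library. Serpina3n had 456, 385, 399 and 421 TPM in SMSrKO and 1359, 529.4, 417 and 477 TPM in WT. WT 1 stood far above the other 7 libraries, which lay close together. The log2 fold change was −0.72 ± 0.383 (edgeR adjusted p = 0.466), and −0.11 ± 0.106 without WT 1 (adjusted p = 0.697).

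Serpina3k ranged widely in both groups, with 2306, 1285, 2004 and 749 TPM in SMSrKO and 3103, 1220.4, 715 and 1207 TPM in WT. It differed by 0.07 ± 0.525 log2 (adjusted p = 0.966), and by 0.70 ± 0.402 without WT 1 (adjusted p = 0.482). Serpina3m had 470.4, 483, 453 and 375 TPM in SMSrKO and 729.9, 346, 501.5 and 405 TPM in WT, at −0.12 ± 0.249 log2 (adjusted p = 0.869). The direction of Serpina3m turned to 0.17 without WT 1.

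The acute phase genes singled out the same library. Summed over 14 genes they stood at 18392, 16324, 18276 and 15323 CPM in SMSrKO and at 40262, 17649, 15506 and 15340 CPM in WT. WT 1 was above all others, and the other 7 libraries overlapped.

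**Figure D5:**
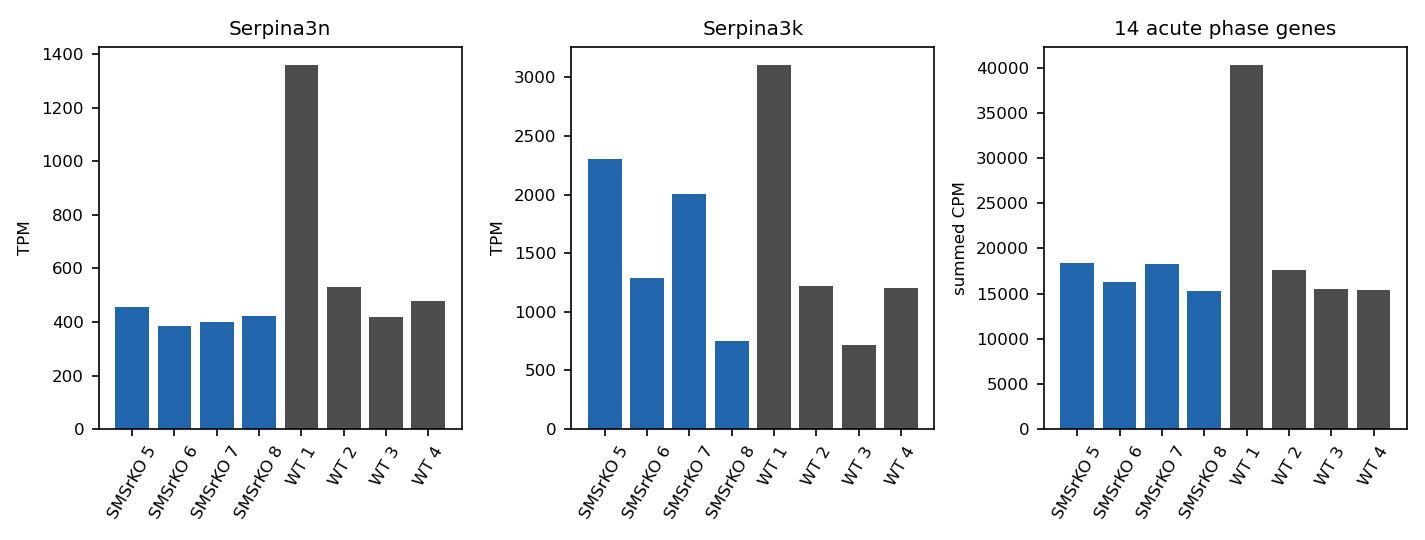
Level of Serpina3n and Serpina3k (TPM) and the summed level of 14 acute phase genes (CPM) in each liver library, SMSrKO left of WT. WT 1 is the highest bar in all 3 panels, at 1359 TPM, 3103 TPM and 40262 CPM.

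Serpina6 had 789.8, 793.0, 718 and 768 TPM in SMSrKO and 379, 616.5, 776 and 715 TPM in WT. WT 1 was the lowest, and the rest of WT overlapped SMSrKO, at 0.36 ± 0.189 log2 (adjusted p = 0.442). Without WT 1 it was 0.20 ± 0.124 (adjusted p = 0.5). Its mean TPM ranked 146 of 27504 genes above 0 in SMSrKO and 162 of 27739 in WT liver, while in hepatocytes, in tables normalized apart, it ranked 2145 in tKO, 1224 in dKO and 1307 in WT.

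Serpina12 had 4.32, 1.88, 3.69 and 2.05 TPM in SMSrKO livers and 2.30, 4.54, 6.05 and 10.02 TPM in WT livers. WT 1 was the lowest WT library here and the groups overlapped, at −0.86 ± 0.445 log2 (adjusted p = 0.447). Without WT 1 the difference was −1.13 ± 0.381 (adjusted p = 0.239).

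Lists around the members gave 0 calls in liver, and of the marker lists the adipocyte list gave 1, lower in SMSrKO. Among them, Hsd11b1 stood at 0.55 ± 0.115 log2 (adjusted p = 0.0964), Klkb1, plasma prekallikrein, at 0.54 ± 0.109 (adjusted p = 0.0892) and the C/EBP factor Cebpa at 0.31 ± 0.0986 (adjusted p = 0.226). Serpins outside the members numbered 0 of 7 of clade A and 0 of 14 of other clades, with the clade A gene Agt, angiotensinogen, at 0.48 ± 0.142 (adjusted p = 0.21).

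Among 9702 genes in the 8 liver libraries, those most like Serpina3n were Gmppb at 0.121, Prepl at 0.15 and Tgm1 at 0.152, and those most like Serpina6 were Ugt2b1 at 0.0807, Cyp2a12 at 0.0852 and Vnn3 at 0.0913. For Serpina12 they were Nrep at 0.347, Aqp8 at 0.355 and Kctd17 at 0.364. For Serpina1e they were the immunoglobulin genes Igha at 0.671 and Igkc at 0.681, and the pentraxin Apcs at 0.767. None of these was among the genes named as most like the same member in hepatocytes. With so few genes taken from each search that was likely from the start, and nothing is read from it.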

How the data were processed

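For liver, the authors deposited whole-number counts per Ensembl gene with gene coordinates and lengths, and a TPM table, which was recomputed from them within 5e-05. For hepatocytes, the deposited files gave expected counts per Entrez gene and FPKM, per the file headers. As 6.25% of the expected counts were not whole numbers, they were rounded. Genes not listed in a hepatocyte file were given 0. Per the submitters' processing notes, reads were handled with DESeq2 1.30.1, Bowtie2 2.2.5, STAR 2.5.2b and Trimmomatic 0.36 on GRCm38 (mm10), with no role or order stated. Not given in the sources used here are the counting tool, its strand setting and its treatment of reads shared by copies.

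The 10 members, found by symbol, and the other gene lists were chosen with earlier results of these data known. The 8 liver and 9 hepatocyte libraries were fitted apart with edgeR 4.0.16 in R 4.3.3 (filterByExpr with minimum count 10, TMM, robust quasi-likelihood test, Benjamini-Hochberg over all genes, threshold 0.05). SE was taken from F and the log2 fold change. CPM was computed with TMM-scaled library totals. The test was tried on simulated data. All members are named, and from other lists up to 4 called genes with the smallest p, or fewer, apart from some that are not reported here. Most alike genes had a mean of at least 5 CPM. Coding windows came from GENCODE M21 and promoters from RefSeq. DESeq2 1.42.0, other scalings, no filter, the liver dispersion with a likelihood ratio test and leaving out each library served as alternatives. Groups share no replicate numbers.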

Additional observations from a re-analysis of the deposited data

Results flagged for a closer look

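Across 20 groups of 4 liver libraries, 1 gene and genotype each, the gap between the most extreme library and its neighbour was compared with the range of the group, and 2 groups exceeded Dixon's 95% critical value. Chance alone gives about 1 in 20 such groups. Both were WT 1, with Serpina1e at 36.0 TPM (gap 0.901 of the range) and Serpina3n at 1358.7 TPM (0.881). The check was first made on log2 TPM, where 0 of 20 groups exceeded the value and these gaps were 0.703 and 0.798, and was then made on TPM as deposited, so the result depends on the scale.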

How the results depend on the processing

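For SMSrKO against WT liver, 136 genes were called with no filter on low counts and 454 with DESeq2, against 37, and leaving out 1 library gave 11 to 109 (109 without WT 1). Library totals alone gave 15 higher and 24 lower in place of 19 and 18. Members called in liver were 0 under every alternative run. In liver, Serpina1e ran from −0.86 to 1.60 log2, Serpina3k from −0.20 to 0.70 and Serpina3m from −0.28 to 0.17 when 1 library was left out, so their directions were not fixed. The summed Serpina3 level ran from −0.20 to 0.38 (0.38 without WT 1). Serpina3k stood at −0.0028 with library totals alone. The causes were not tested.

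The liver dispersion was used with a likelihood ratio test. It gave 1055 genes called for dKO against WT, 1221 for tKO against WT and 326 for tKO against dKO, and 4, 5 and 3 members. That dispersion is larger, but the test changed with it, and their parts were not told apart. The summed Serpina3 level of dKO against WT moved to −0.23 with deposited FPKM from −0.18, as lengths weight the copies otherwise. Of values for single members, 119 of 130 in liver, 135 of 150 for dKO against WT, 145 of 150 for tKO against WT and 144 of 150 for tKO against dKO kept direction and side of the threshold, and all those that turned direction were in liver. No paired analysis was possible because the groups share no replicate numbers. In liver the SE of Serpina1e, 0.951, is larger than its difference, and its libraries ran from 3.20 to 23.4 CPM in SMSrKO and from 2.26 to 27.6 CPM in WT. Depth limits Serpina12 most in hepatocytes, where it rests on 27 to 41 counts in knockout libraries and had the largest SE among the members.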
